A study of Equus caballus with 9 samples.

Results

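The genes described here are 9 that make, sense and break down prostaglandins: PLA2G4A, PTGS1, PTGS2, PTGES, PTGIS, PTGER2, PTGER4, PTGFR and HPGD. They were taken by gene symbol from the platform annotation of an Affymetrix expression array, and each had a single probe set, so they are 9 of the 16661 genes that the annotation names alone on at least 1 of the 30559 probe sets. The study measured RNA of equine plastic-adherent cells in 3 groups of 3 arrays. The first group, labelled EA-ADSC, was grown from peripheral blood mononuclear cells of 3 horses bled 2 h after electroacupuncture, in which current runs between acupuncture needles, and is called blood-derived below. The second, AD-MSC, was grown from tailhead fat of control horses without treatment, and the third, BM-MSC, from the bone marrow of 3 horses without treatment. All cells spent 96 h on plastic in medium containing 15% fetal bovine serum, after which 100 ng of RNA of the attached cells was amplified. The labels name no horse for the adipose samples, and the age, sex and breed of the horses were not used here. Tissue, treatment and horse change together between the blood-derived cells and either control group, so the effect of electroacupuncture cannot be told apart from theirs. Array run dates were not used here, so a batch shared by the adipose arrays cannot be told apart from their tissue.

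Prostaglandins are short-lived lipid signals made from arachidonic acid. A phospholipase frees the fatty acid from membranes, a cyclooxygenase turns it into an unstable precursor, and a terminal synthase sets which prostaglandin is formed. Each product acts on its own receptors at the cell surface and is then oxidised to an inactive form. In mesenchymal stromal cells this pathway is best known for prostaglandin E2, which the cells release in response to inflammatory cytokines and which dampens the activity of macrophages and T cells.

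Among these 9 genes the clearest differences lay at the receiving and inactivating ends of the pathway. PTGFR, the receptor of prostaglandin F2-alpha, was lower in adipose than in bone marrow cells, and in blood-derived cells lay 7.29-fold below bone marrow cells, a difference that missed the threshold. HPGD, the dehydrogenase that starts prostaglandin inactivation, was higher in adipose cells than in either other group. PTGER2, a prostaglandin E2 receptor, was higher in adipose than in bone marrow cells. By the moderated F test of limma these 3 of the 9 genes differed among the groups at an adjusted p under 0.05, against 7.48% of all probe sets. The genes of synthesis did not pass, although the cyclooxygenase PTGS2 was high in 2 of the 3 blood-derived arrays.

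Values below are the authors' normalized log2 intensities, in which a step of 1 is a doubling. Means are given ± SD of n = 3 arrays, a difference is the first group's mean minus the second's, and adjusted p-values come from limma with Benjamini-Hochberg adjustment over all 30559 probe sets. All values together had a median of 4.62 and quartiles of 3.35 and 6.02. Levels of different genes cannot be set against each other on such an array, and a fold against a group near or below the median holds for the deposited values only. The arrays are of bulk RNA, so fewer cells of a type and less RNA per cell cannot be told apart.

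**Figure D1:**
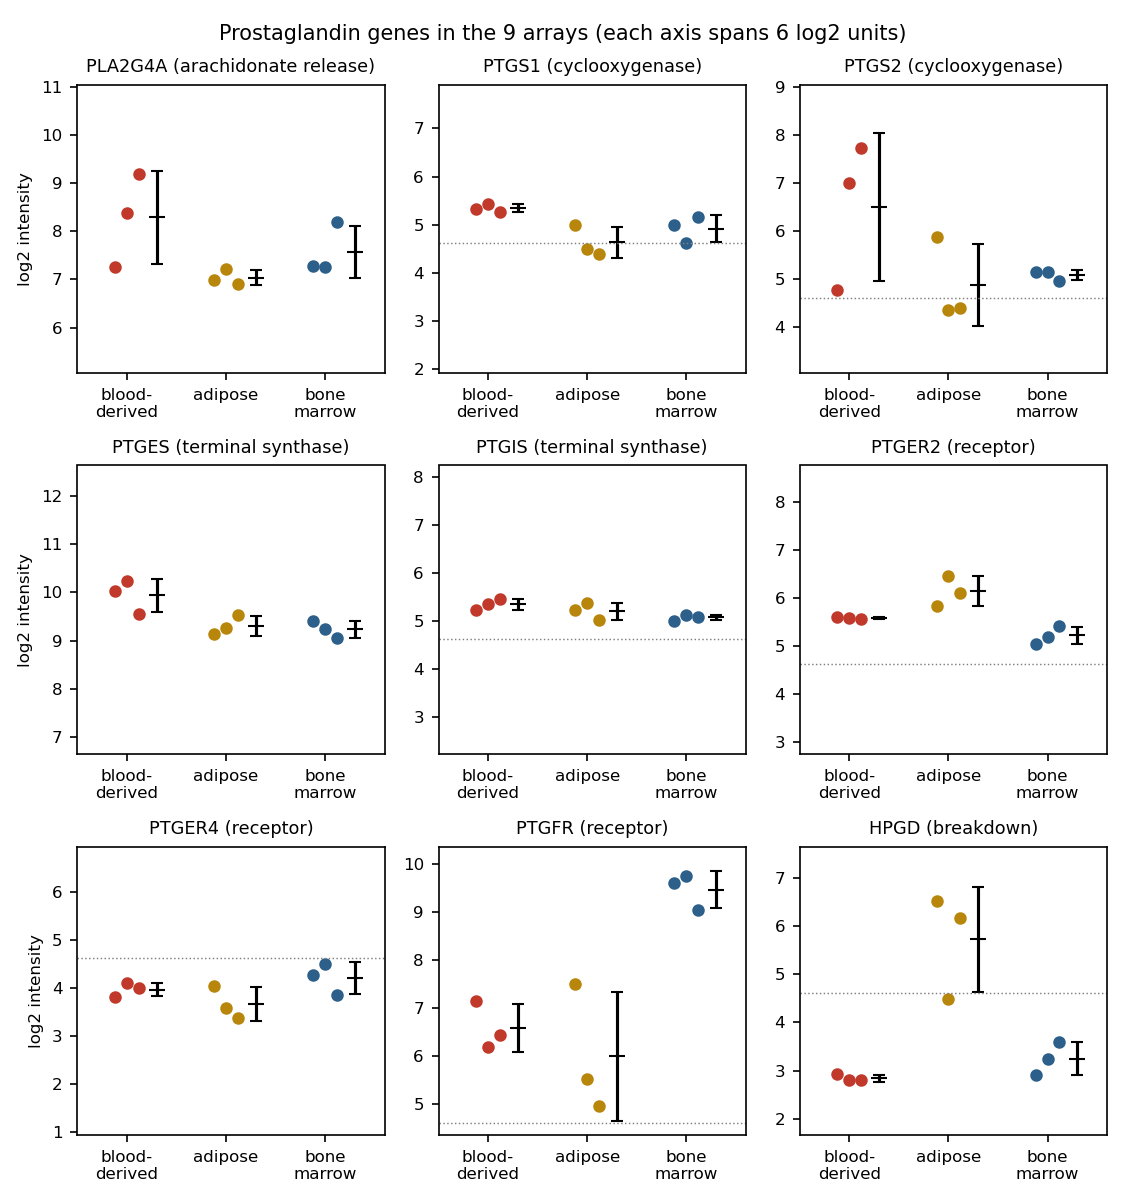
Log2 intensity (vertical axis, 6 log2 units in every panel) of the 9 prostaglandin genes in each array, with blood-derived cells on the left, adipose cells in the middle and bone marrow cells on the right; points are arrays in the order of their replicate numbers, bars are the mean ± SD of 3 arrays, and the dotted line is the median of all values, 4.62. PTGFR lies between 9.04 and 9.76 in bone marrow cells and at 7.51 or below elsewhere, and HPGD lies at 4.49 or above in adipose cells alone.

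Marker lists of cell types were set against the median of all values, a level that does not by itself show that a gene is expressed. Of 9 measured stromal surface markers, 7 lay above 4.62 in all 9 arrays, and the exceptions were VCAM1, an adhesion molecule, and PDGFRA, a growth factor receptor. VCAM1 was at 4.12, 3.44 and 4.35 in blood-derived, 4.80, 4.30 and 6.74 in adipose and 8.48, 7.36 and 10.68 in bone marrow cells, and PDGFRA was at 4.52 in blood-derived replicate 1. Of the 9, 2 were higher and 0 lower in blood-derived than in bone marrow cells, 4 higher and 1 lower in blood-derived than in adipose cells, and 1 higher and 3 lower in adipose than in bone marrow cells. Of all probe sets 0.815%, 6.92% and 6.08% were called in these comparisons. Among the marker calls, CD44 in blood-derived against bone marrow cells held in 3 of the 9 fits that left out 1 array. NT5E in adipose against bone marrow cells held in 2 of those 9. Of 7 measured pan-leukocyte markers, 2 lay above 4.62 in all 9 arrays and 1, PTPRC, lay below it in all 9. PTPRC was at 3.01 to 3.21 in blood-derived, 2.57 to 3.53 in adipose and 3.38 to 4.51 in bone marrow cells. Of 9 measured monocyte and macrophage markers, 1 lay above 4.62 in all 9 arrays and 3 lay below it in all 9. Above it in all 9 arrays were also 2 of 6 lymphocyte, 1 of 5 neutrophil and 2 of 3 platelet and erythroid markers. For endothelial markers the count was 0 of 5. Counts above the median thus cannot settle the cell type.

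Several marker lists moved with the groups. The mean of 8 fibroblast matrix genes was 11.05 to 11.26 in blood-derived, 9.59 to 10.02 in adipose and 11.18 to 11.31 in bone marrow cells, and 4 of the 8, among them FN1 and COL1A1, were higher in blood-derived than in adipose cells, while 5 were lower in adipose than in bone marrow cells. The mean of 7 pericyte and smooth muscle markers was 6.82 to 7.40 in blood-derived, 5.05 to 5.67 in adipose and 6.48 to 6.80 in bone marrow cells. DES, the muscle intermediate filament gene, was 12.6-fold higher in blood-derived than in bone marrow cells (adjusted p = 0.0048). It was the only 1 of the 7 to pass in that comparison. There 4 of the 7 had negative differences, and the median of the 7 was -0.1. ACTA2, CNN1 and DES were 10.2-, 8.78- and 17.7-fold higher in blood-derived than in adipose cells, where 2 of the 7 had negative differences. ACTA2 and CNN1 were 11.7- and 11.5-fold lower in adipose than in bone marrow cells, where 2 of the 7 had positive differences. Both ACTA2 calls held in 6 of the 9 fits that left out 1 array and were lost in fits of the 2 groups alone. The mean of 7 pan-leukocyte markers was 4.42 to 4.47 in blood-derived, 4.36 to 4.48 in adipose and 4.74 to 5.58 in bone marrow cells. Of these 7, CORO1A and RAC2 were lower in adipose than in bone marrow cells, calls kept in 3 and 1 of the 9 fits that left out 1 array and lost in a fit of the 2 groups alone (adjusted p = 0.085 and 0.0963). By limma 0 of the 7 differed between blood-derived and bone marrow cells, where 3 had an unadjusted p under 0.05. The mean of 9 monocyte and macrophage markers was 4.04 to 4.26 in blood-derived, 4.48 to 4.77 in adipose and 4.84 to 5.85 in bone marrow cells, with FCER1G lower in blood-derived than in bone marrow (adjusted p = 0.0206) and adipose cells (0.0193) and TYROBP lower in adipose than in bone marrow cells (0.0132). FCER1G lost the first call without blood-derived replicate 2 (0.0833) or 3 (0.0768) or bone marrow replicate 3 (0.0684), and the second in 4 of the 9 fits without 1 array, with adjusted p from 0.0535 to 0.068. In blood-derived against adipose cells 4 of these 9 markers had positive differences, and their median was -0.02. CD68, the 1 marker above 4.62 in all 9 arrays, averaged 9.96 in adipose, 8.54 in bone marrow and 7.58 in blood-derived cells. In adipose against bone marrow cells 2 of the 9 had positive differences and 7 negative ones. Of the lymphocyte, neutrophil, platelet and erythroid, and endothelial markers 0 passed in any comparison by limma, and 1 neutrophil marker in blood-derived against adipose and 1 lymphocyte marker in adipose against bone marrow cells had an unadjusted p under 0.05. The mean of 5 adipocyte markers was 4.59 to 4.79 in blood-derived, 5.53 to 6.85 in adipose and 4.78 to 5.07 in bone marrow cells. The part of these marker differences in the results below was not tested.

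Arachidonate release was represented by PLA2G4A, the cytosolic phospholipase A2 that frees arachidonic acid on a rise in calcium. Its log2 intensity was 7.27, 8.39 and 9.20 in blood-derived cells, 6.98, 7.22 and 6.91 in adipose cells and 7.28, 7.26 and 8.20 in bone marrow cells. All 3 blood-derived arrays lay above the adipose ones, by as little as 0.05, and they overlapped with the bone marrow arrays. The blood-derived minus adipose difference was 1.25 (95% interval 0.21 to 2.29, adjusted p = 0.154), and the blood-derived minus bone marrow difference was 0.71 (-0.33 to 1.75, adjusted p = 0.651). Without blood-derived replicate 1, the array with the lowest value of its group, the difference from adipose cells was 1.76 and passed (adjusted p = 0.0349).

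The cyclooxygenases take the committed step. PTGS1, the constitutive form, was at 5.32, 5.43 and 5.27 in blood-derived cells, at 5.0, 4.50 and 4.40 in adipose cells and at 5.0, 4.61 and 5.16 in bone marrow cells. The blood-derived arrays lay above all 6 others. The log2 difference from adipose cells was 0.71 (95% interval 0.26 to 1.16, adjusted p = 0.0717) and that from bone marrow cells 0.42 (-0.03 to 0.87, adjusted p = 0.471). The first of these did not pass with all arrays and all probe sets but passed without adipose replicate 1 (adjusted p = 0.03), after dim probe sets were removed (0.0421) and with 1 probe set per gene (0.04).

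PTGS2, the form induced by cytokines and growth factors, had the widest spread of the genes of synthesis, 3.36 log2 units over the 9 arrays. It was at 4.78, 7.0 and 7.73 in blood-derived cells, at 5.88, 4.37 and 4.40 in adipose cells and at 5.15, 5.15 and 4.97 in bone marrow cells. Blood-derived replicates 2 and 3 stood above every other array, while replicate 1 lay below all 3 bone marrow arrays and adipose replicate 1. The group mean was thus 6.51 ± 1.54 in blood-derived cells, 4.88 ± 0.86 in adipose cells and 5.09 ± 0.11 in bone marrow cells. The blood-derived cells differed by 1.62 from adipose cells (95% interval 0.01 to 3.24, adjusted p = 0.234) and by 1.42 from bone marrow cells (-0.20 to 3.03, adjusted p = 0.509). Without blood-derived replicate 1 these became 2.48, which passed (adjusted p = 0.0283), and 2.28, which did not (0.095).

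The array of blood-derived cells with the lowest PTGS2 was also the lowest of its group for PLA2G4A and PTGIS, but not for PTGES and PTGS1. As a list, genes known to induce or accompany PTGS2 had another order: the mean of 12 measured inducers and NF-kB targets was 5.15 in blood-derived replicate 1, 4.70 in replicate 2 and 4.57 in replicate 3. Its members differed among themselves, so the mean does not give the order of each. CXCL8, a neutrophil chemokine, was at 6.91, 5.41 and 5.47 in those arrays and PTX3, a secreted pentraxin, at 5.38, 3.24 and 3.03. IL1R1, the interleukin-1 receptor, was at 3.84, 3.87 and 3.98.

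The terminal synthases turn the cyclooxygenase product into single prostaglandins. PTGES, the microsomal prostaglandin E synthase that is usually induced together with PTGS2, was at 10.02, 10.23 and 9.56 in blood-derived cells, at 9.13, 9.26 and 9.53 in adipose cells and at 9.40, 9.25 and 9.05 in bone marrow cells. Blood-derived arrays lay above all others, by at least 0.03 over adipose and 0.17 over bone marrow cells. The log2 difference was 0.63 from adipose (95% interval 0.18 to 1.09, adjusted p = 0.103) and 0.71 from bone marrow cells (0.26 to 1.16, adjusted p = 0.177), and neither passed. Without blood-derived replicate 3 the first was 0.82 and passed by a narrow margin (adjusted p = 0.0499).

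PTGIS, prostacyclin synthase, varied least, by 0.45 log2 units over the 9 arrays. It was at 5.22, 5.34 and 5.46 in blood-derived cells, at 5.22, 5.38 and 5.01 in adipose cells and at 5.0, 5.13 and 5.07 in bone marrow cells. The 95% intervals were -0.16 to 0.43 for blood-derived minus adipose, -0.03 to 0.57 for blood-derived minus bone marrow and -0.16 to 0.43 for adipose minus bone marrow cells, so differences of 1 log2 unit or more lay outside all of them.

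Among the receptors PTGFR varied most. PTGFR acts through calcium and is known for contraction of the uterus and regression of the corpus luteum in the mare. It was at 7.16, 6.19 and 6.45 in blood-derived cells, at 7.51, 5.53 and 4.97 in adipose cells and at 9.61, 9.76 and 9.04 in bone marrow cells. Every bone marrow array lay at least 1.88 above every blood-derived array and 1.53 above every adipose array, while the blood-derived and adipose arrays overlapped. PTGFR was 11-fold lower in adipose than in bone marrow cells (log2 difference -3.47, SE 0.59, adjusted p = 0.0131), a call lost without bone marrow replicate 1 or 2 (0.0543 for each).

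Blood-derived cells had 7.29-fold less PTGFR signal than bone marrow cells (log2 difference -2.87, 95% interval -4.22 to -1.51), which did not pass over all probe sets (adjusted p = 0.0781). The difference passed without adipose replicate 1 (adjusted p = 0.0126), the adipose array with the highest PTGFR value, and in 4 of the other alternatives, with adjusted p from 0.0174 to 0.0438. Blood-derived and adipose cells differed by 0.60 (-0.76 to 1.96, adjusted p = 0.622). The pan-leukocyte and the monocyte and macrophage marker means were likewise highest in bone marrow cells. The mean of 9 stromal surface markers was 7.44 to 8.02 in bone marrow, 7.27 to 7.5 in blood-derived and 7.05 to 7.28 in adipose cells. The neutrophil marker mean was 3.96 to 4.2 in bone marrow and 4.01 to 4.32 in adipose cells, and the lymphocyte means of those groups also overlapped. In bone marrow replicates 1, 2 and 3 the pan-leukocyte mean was 5.58, 4.74 and 5.39 and the stromal surface mean 7.6, 7.44 and 8.02. The part of these marker lists in the PTGFR difference was not tested.

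PTGER2, an E receptor that raises cAMP, was at 5.61, 5.59 and 5.57 in blood-derived cells, at 5.84, 6.46 and 6.11 in adipose cells and at 5.05, 5.19 and 5.41 in bone marrow cells. The 3 groups did not overlap, with adipose cells highest and bone marrow cells lowest. PTGER2 was 1.89-fold higher in adipose than in bone marrow cells (log2 difference 0.92, SE 0.17, adjusted p = 0.0188). That call was lost without adipose replicate 3 (0.0545) or bone marrow replicate 1 (0.0745) or 2 (0.0693) and in a fit of the 2 groups alone (0.061). The blood-derived cells differed by -0.55 from adipose (95% interval -0.94 to -0.15, adjusted p = 0.106) and by 0.37 from bone marrow cells (-0.02 to 0.77, adjusted p = 0.461). The first of these passed without adipose replicate 1 (-0.69, adjusted p = 0.0489).

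PTGER4, the other E receptor that raises cAMP, was dim. It was at 3.81, 4.10 and 4.0 in blood-derived cells, at 4.05, 3.58 and 3.38 in adipose cells and at 4.27, 4.51 and 3.85 in bone marrow cells, below the median of all values in all 9 arrays. Adipose and bone marrow arrays overlapped (difference -0.54, 95% interval -1.04 to -0.04, adjusted p = 0.208), and the blood-derived cells overlapped with both.

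HPGD, the dehydrogenase that oxidises prostaglandin E2 and F2-alpha, was at 2.92, 2.80 and 2.80 in blood-derived cells, at 6.52, 4.49 and 6.18 in adipose cells and at 2.90, 3.25 and 3.60 in bone marrow cells. The adipose arrays lay above all 6 others, the closest being adipose replicate 2, at 0.89 over the highest bone marrow array. Blood-derived cells had 7.42-fold less HPGD signal than adipose cells (log2 difference -2.89, SE 0.46, adjusted p = 0.00903), a call that held in all 9 fits that left out 1 array. Adipose cells were 5.58-fold above bone marrow cells (log2 difference 2.48, SE 0.46, adjusted p = 0.0187), a call lost without adipose replicate 3 (0.0661), without bone marrow replicate 1 (0.0739) or 2 (0.0657), and in a fit of the 2 groups alone (0.064). Blood-derived and bone marrow cells overlapped (-0.41, 95% interval -1.47 to 0.65). Both of these groups lay below the median of all values, so the folds hold for the deposited values only.

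Among the adipose arrays the lowest HPGD value stood in replicate 2, which had the highest mean of adipocyte markers, 6.85, beside 5.53 in replicate 1 and 6.09 in replicate 3. The markers did not share 1 order. FABP4, the fatty acid carrier of fat cells, was at 6.25, 11.27 and 8.14 in adipose replicates 1, 2 and 3, while PLIN1, which coats lipid droplets, was at 6.74, 5.91 and 6.44. CIDEC had the order of FABP4, at 5.62, 7.83 and 6.66, and LPL that of PLIN1, at 4.79, 4.27 and 4.72. Adipose replicate 2 held the highest value of all 9 arrays for 3 of the 5 markers.

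**Figure D2:**
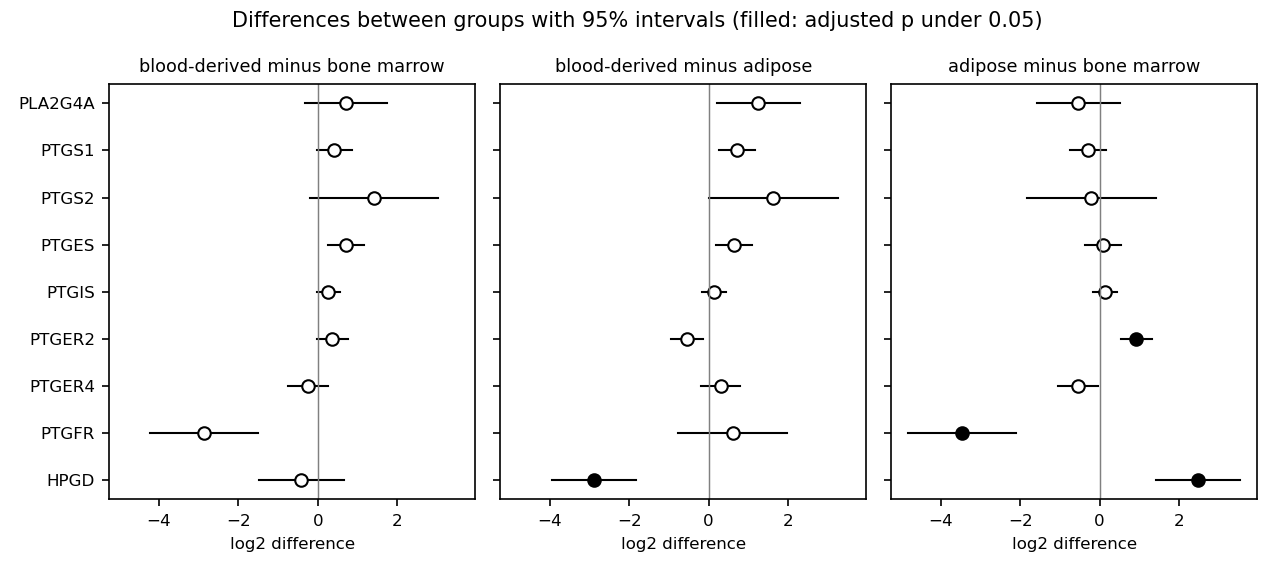
Log2 differences (horizontal axis) of the 9 genes in the 3 comparisons, blood-derived minus bone marrow, blood-derived minus adipose and adipose minus bone marrow; lines are 95% intervals of limma and filled points have an adjusted p under 0.05. The filled points are HPGD in blood-derived against adipose cells, and PTGER2, PTGFR and HPGD in adipose against bone marrow cells.

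Comparison by comparison, blood-derived against bone marrow cells gave 0 of 9 calls by limma, where 0.815% of all probe sets were called. At an unadjusted p under 0.05 the members were 2 (PTGES, positive, and PTGFR, negative), beside 11.7% of all probe sets. The 2 sets of arrays did not overlap for 5 of the 9 genes, PTGS1, PTGES, PTGIS and PTGER2 with blood-derived cells above and PTGFR with them below, beside 18.4% of all probe sets. The median difference of the 9 genes was 0.37, and the median over all probe sets was 0.009. In 5 alternatives there was 1 call, that of PTGFR.

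Blood-derived against adipose cells gave 1 call of 9, HPGD lower, where 6.92% of all probe sets were called. At an unadjusted p under 0.05 there were 6 (PLA2G4A, PTGS1, PTGS2 and PTGES positive, PTGER2 and HPGD negative), beside 21.2% of all probe sets. The arrays did not overlap for 5 of the 9, beside 23.5% of all probe sets, and the median difference was 0.60 against -0.024 over all probe sets. The 4 genes that lead from membrane lipid to prostaglandin E2, PLA2G4A, PTGS1, PTGS2 and PTGES, had positive differences of 0.63 to 1.62, and none of them passed over all probe sets. The other measured prostaglandin E synthases, PTGES2 and PTGES3, had differences of -0.24 and -0.40 (adjusted p = 0.672 and 0.254).

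Adipose against bone marrow cells gave 3 calls of 9, where 6.08% of all probe sets were called: PTGER2 and HPGD were higher and PTGFR was lower. PTGER4 also had an unadjusted p under 0.05, which made 4 of 9, beside 21.1% of all probe sets. The arrays did not overlap for 4 of the 9 (PTGER2 and HPGD above, PTGFR and PLA2G4A below), beside 25.6% of all probe sets. The genes of synthesis had differences between -0.54 and 0.14 in this comparison. Each group enters 2 of the 3 comparisons, so their results are not independent of each other.

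The calls did not all hold when single arrays were left out. The number of members called in adipose against bone marrow cells was 0 without bone marrow replicate 1 or 2 and 1 without adipose replicate 3, and that in blood-derived against adipose cells was 3 without blood-derived replicate 1 or adipose replicate 1.

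**Figure D3:**
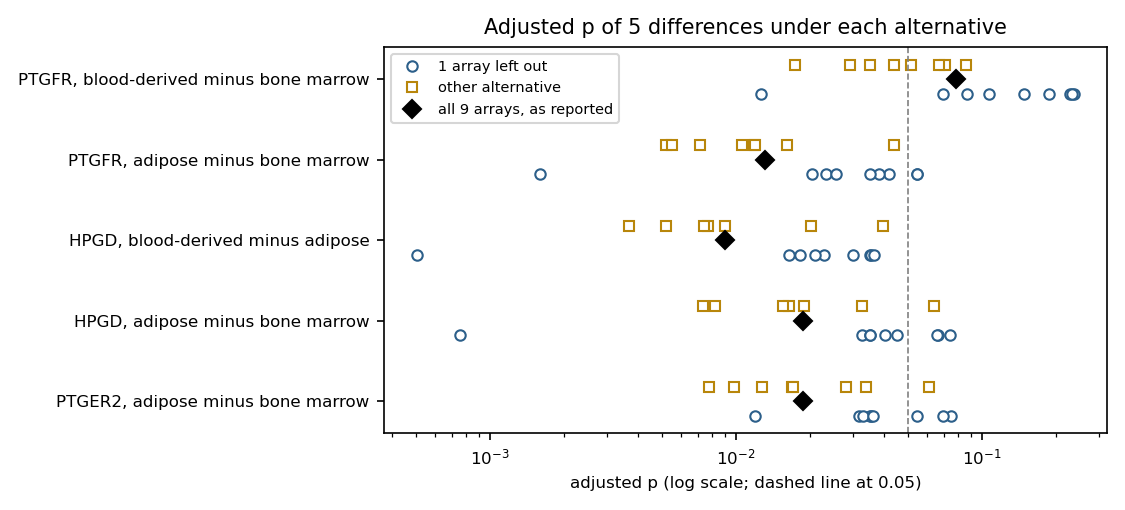
Adjusted p (horizontal log axis, dashed line at 0.05) of the 4 called differences and of PTGFR in blood-derived against bone marrow cells; diamonds are the fit of all 9 arrays, circles the fits that left out 1 array and squares the other alternatives. HPGD in blood-derived against adipose cells stays left of the line throughout, and PTGFR in blood-derived against bone marrow cells lies right of it in the fit of all arrays and left of it in 5 alternatives.

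The other genes of arachidonate release were the lipases, acyltransferases and ligases that set how much free arachidonic acid is available, of which 13 of 16 listed were measured. In adipose cells 1 was higher and 1 lower than in either other group. MGLL, monoacylglycerol lipase, which can supply arachidonic acid from an endocannabinoid in mouse tissues, was at 7.89, 8.29 and 7.52 in blood-derived cells, at 4.56, 3.98 and 4.75 in adipose cells and at 7.68, 8.47 and 6.44 in bone marrow cells. It was 11.1-fold higher in blood-derived than in adipose cells (adjusted p = 0.00436) and 8.56-fold lower in adipose than in bone marrow cells (adjusted p = 0.00796). ACSL4, the ligase that prefers arachidonic acid and returns it to membranes, went the other way, at 8.11, 8.87 and 7.76 in blood-derived cells, at 10.32, 10.32 and 10.44 in adipose cells and at 8.15, 8.15 and 8.51 in bone marrow cells. Its log2 difference was -2.12 for blood-derived minus adipose (adjusted p = 0.00272) and 2.09 for adipose minus bone marrow cells (adjusted p = 0.00308). Between blood-derived and bone marrow cells 0 of 13 passed by limma, and 1 had an unadjusted p under 0.05.

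The list drawn up for prostaglandin transport and breakdown had 5 measured genes of 8. PTGR1, the reductase that takes the step after HPGD, was at 4.84, 3.87 and 4.21 in blood-derived cells, at 8.61, 6.53 and 7.20 in adipose cells and at 5.60, 5.34 and 5.52 in bone marrow cells. As with HPGD, the adipose arrays lay above all others, and adipose replicate 1 was highest and replicate 2 lowest of its group. PTGR1 was 8.82-fold lower in blood-derived than in adipose cells (adjusted p = 0.00694) and 3.89-fold higher in adipose than in bone marrow cells (adjusted p = 0.0492). The second call was lost in 7 of the 9 fits that left out 1 array, with adjusted p from 0.0577 to 0.145. The remaining 4 genes passed in no comparison. Among them the efflux pump ABCC4 read exactly the same in 8 of the 9 arrays, and the uptake carrier SLCO2A1 in 5.

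Of the other terminal synthases 7 of 11 were measured and of the list of other prostanoid receptors 5 of 7, and 0 passed in any comparison by limma. That list also held PTGFRN, which is not itself a prostanoid receptor. At an unadjusted p under 0.05 there were 0 synthases in each comparison, and 0 receptors in blood-derived against bone marrow, 2 in blood-derived against adipose and 1 in adipose against bone marrow cells. PTGDS, prostaglandin D synthase, was at 4.38, 4.38 and 4.88 in blood-derived, 6.40, 4.79 and 4.87 in adipose and 4.95, 5.03 and 4.91 in bone marrow cells. PTGER3, the E receptor that lowers cAMP, was at 3.41, 3.37 and 3.54 in blood-derived cells, at 5.39, 4.33 and 8.37 in adipose cells and at 3.82, 3.30 and 3.98 in bone marrow cells. The adipose arrays lay above the others but far apart, and the difference from adipose in blood-derived cells was -2.59 (adjusted p = 0.119). It was -1.42 without adipose replicate 3 (adjusted p = 0.0585) and -3.44 without adipose replicate 2, where it passed (0.0386).

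The leukotriene and lipoxygenase branch competes for the same fatty acid and is most active in leukocytes. Of its 11 listed genes 8 were measured and 0 passed in any comparison by limma, with 0, 2 and 2 at an unadjusted p under 0.05 in blood-derived against bone marrow, blood-derived against adipose and adipose against bone marrow cells. LTA4H, which makes leukotriene B4, was at 7.63, 7.69 and 7.42 in blood-derived, 8.0, 8.08 and 7.93 in adipose and 7.55, 7.66 and 7.54 in bone marrow cells. Its differences of -0.42 and 0.42 did not pass (adjusted p = 0.0704 and 0.0783) but did once dim probe sets were removed (0.0376 and 0.0423) and with 1 probe set per gene (0.0357 and 0.0399).

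**Figure D4:**
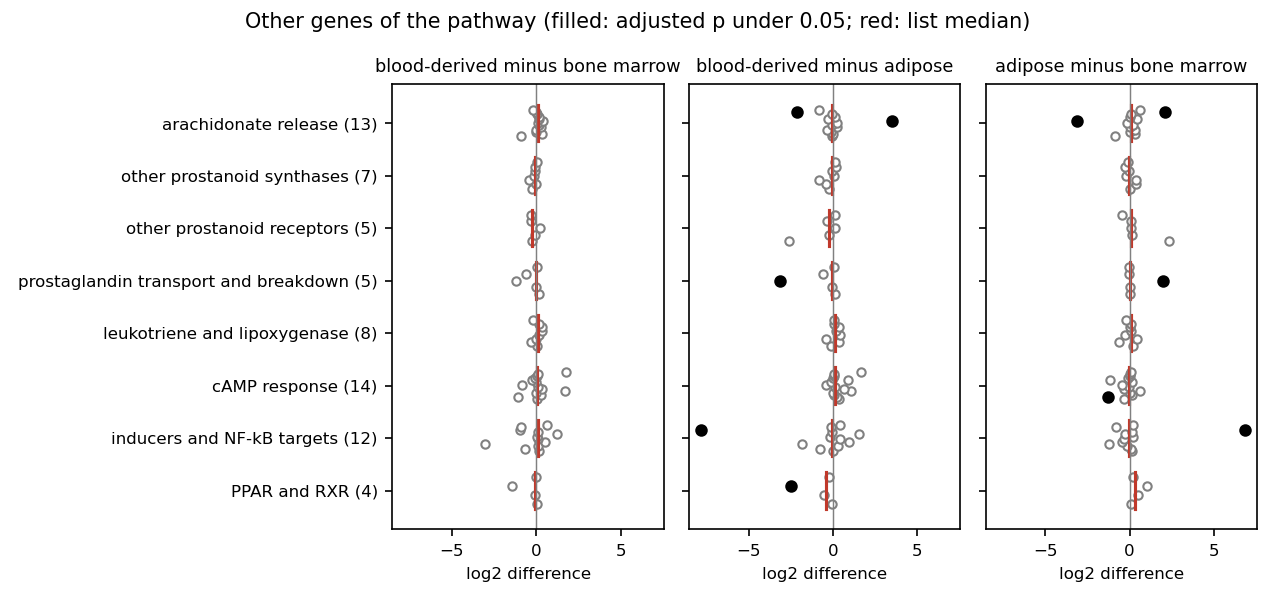
Log2 differences (horizontal axis) of the other measured genes of the pathway by list, with the number of genes in brackets, for blood-derived minus bone marrow, blood-derived minus adipose and adipose minus bone marrow cells; filled points have an adjusted p under 0.05 and red bars are list medians. No point is filled in blood-derived against bone marrow cells, and list medians lie between -0.39 and 0.33 in all 3 comparisons.

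Among 12 measured inducers and NF-kB targets of 16 listed, 1 passed, PTX3, a secreted pentraxin, which was lower in blood-derived than in adipose cells (log2 difference -7.80, adjusted p = 2.81e-04) and higher in adipose than in bone marrow cells. IL6, the cytokine, was at 4.15, 3.66 and 3.61 in blood-derived, 7.30, 5.14 and 4.45 in adipose and 5.59, 5.49 and 9.45 in bone marrow cells. IL6 was higher in every adipose and bone marrow array than in any blood-derived one, with differences of -1.82 (adjusted p = 0.39) and -3.04 (adjusted p = 0.308). Without bone marrow replicate 3, the array with the highest IL6, the second difference was -1.73 (adjusted p = 0.499). TNFAIP6, a hyaluronan-binding anti-inflammatory protein, was at 10.92, 10.55 and 10.17 in blood-derived, 9.95, 8.35 and 8.66 in adipose and 9.74, 8.57 and 9.56 in bone marrow cells.

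All 14 listed cAMP response genes, which lie downstream of PTGER2 and PTGER4 among other receptors, were measured. By limma 0 passed in blood-derived against bone marrow cells, with 4 at an unadjusted p under 0.05, and 0 in blood-derived against adipose cells, with 3. NR4A2, an orphan nuclear receptor, was at 6.14, 5.52 and 6.14 in blood-derived cells, and its difference of -1.08 from bone marrow cells (adjusted p = 0.113) passed with array weights (0.0443). In adipose against bone marrow cells 1 passed, NR4A2, which was lower, at 5.80, 5.25 and 6.11 in adipose cells and 7.14, 6.81 and 7.10 in bone marrow cells (log2 difference -1.29, adjusted p = 0.0228). It lost that call without bone marrow replicate 1 (0.0836), 2 (0.0528) or 3 (0.0789). PDE4B, which breaks down cAMP, was at 5.58, 6.36 and 5.50 in blood-derived, 4.92, 4.09 and 5.27 in adipose and 4.10, 3.99 and 4.31 in bone marrow cells. The blood-derived arrays lay above all others (1.68 over bone marrow, adjusted p = 0.0634), and the difference passed in 4 alternatives, with adjusted p from 0.0219 to 0.0349.

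PRKAR2B, a regulatory subunit of the cAMP-dependent kinase, was at 3.56, 5.44 and 5.37 in blood-derived, 3.10, 3.27 and 3.0 in adipose and 3.01, 2.72 and 3.31 in bone marrow cells. As with PTGS2, blood-derived replicates 2 and 3 stood far above every other array. Its difference from adipose cells was 1.67 (adjusted p = 0.0674), and 2.28 without blood-derived replicate 1, where it passed (0.00133).

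The nuclear receptors PPARA, PPARD, PPARG and RXRA, of which the PPARs bind some prostanoids, gave 1 call. PPARG, the master regulator of fat cells, was at 3.91, 3.51 and 3.88 in blood-derived, 5.10, 6.90 and 6.66 in adipose and 5.67, 4.36 and 5.60 in bone marrow cells. It was lower in blood-derived than in adipose cells (log2 difference -2.46, adjusted p = 0.0242), a call lost without any 1 of blood-derived replicates 1, 2 and 3 and adipose replicates 2 and 3, with adjusted p from 0.0624 to 0.0815. The adipocyte markers FABP4 and CIDEC were also lower in blood-derived than in adipose cells, as 2 of the 5 markers measured. Those calls held in 6 and 5 of the 9 fits that left out 1 array. Both were lost in a fit of the 2 groups alone (adjusted p = 0.0622 and 0.0687). Of the 5 markers 2 had positive differences, among them LPL at 0.9 (adjusted p = 0.254).

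For the 3 genes that passed the F test, the genes with the most similar profiles were found by the root mean square difference of log2 values over the 9 arrays after centring each gene, a description with no test. Nearest to PTGFR were NREP, ISLR and ECM2, at 0.58, 0.64 and 0.64 log2 units. ISLR, for example, averaged 5.23 ± 0.34 in blood-derived, 5.02 ± 0.37 in adipose and 8.20 ± 0.14 in bone marrow cells. Nearest to HPGD were APOD, which encodes apolipoprotein D, LRRN4CL and the transcription factor gene MITF, at 0.32, 0.34 and 0.34. APOD averaged 7.38 ± 0.29 in blood-derived, 9.83 ± 1.08 in adipose and 7.72 ± 0.16 in bone marrow cells. Nearest to PTGER2 were NDUFA10, which encodes a subunit of respiratory complex I, CCNYL1 and NSMCE4A, at 0.10, 0.11 and 0.11.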

How the data were processed

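RNA of 9 cultured equine cell samples was hybridised to Affymetrix expression arrays, 3 per group. The authors deposited log2 intensities that look normalized, since the array medians lay between 4.56 and 4.66, with all values between 0.86 and 13.56. The submitters' processing notes name Transcriptome Analysis Console 3, Partek 6.16.0419 and Affymetrix Expression Console. How probe sets were summarized and normalized, and on which genome build, was not stated. Values entered the tests as deposited. In 37.3% of probe sets at least 2 arrays held exactly the same value, and in 3.40% at least 5 did. Detection calls were not used here, and precision is limited by having 3 arrays in each group.

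With limma 3.58.1 under R 4.3.3, lmFit and eBayes were run on the 30559 probe sets of all 9 arrays with 1 mean per group, leaving 6 residual degrees of freedom. Contrasts were tested two-sided, the 3 groups by the moderated F test, and p-values were adjusted by Benjamini-Hochberg with a threshold of 0.05. The procedure was tested on simulated data with 200 probe sets changed. The annotation named 1 gene on 16789 probe sets, more than 1 on 343 and no gene on 13427. Per gene the probe set of the highest mean was used. The bone marrow and blood samples are labelled as different horses. For the adipose samples no label says that they came from separate horses, though the design text speaks of 3, and p-values measure the spread between these samples. Replicate numbers were not taken to pair samples. Residuals of arrays from different groups correlated at -0.02 to 0.12 where they shared a number and at -0.12 to 0.04 where they did not. With so few arrays these correlations cannot settle whether samples were paired.

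The 9 genes, the lists and the tests were chosen with earlier results of these data known. Eligible to be named were all 9 genes and, of each list and comparison, up to 4 genes past the threshold or, in their absence, up to 2 of the smallest p, and for each gene past the F test the 3 nearest profiles. Not every list gene eligible by this rule is described. CXCL8, TNFAIP6, ABCC4, SLCO2A1, VCAM1, PTPRC, CD68 and PLIN1 were named after their values were seen. Alternatives were quantile normalization, median centring, leaving out dim probe sets (fewer than 3 arrays over the median of all values), an intensity trend, array weights, the replicate number as a block, only the 2 groups compared, 1 probe set per gene, a 2-fold criterion and leaving out each array.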

Additional observations from a re-analysis of the deposited data

How the results depend on the processing

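Of the 480 repeats of the 27 member differences, 453 kept direction and side of the threshold, 11 lost a call, 12 gained one and 4 changed sign. The sign changes were in values near 0 that passed nowhere: PTGES in adipose minus bone marrow cells ran from -0.04 to 0.17 over the fits without 1 array (below 0 without adipose or bone marrow replicate 3), and PTGS2 in that comparison from -0.70 to 0.05 (above 0 without adipose replicate 2 or 3). PPARD in blood-derived minus bone marrow cells ran from -0.23 to 0.12. In blood-derived against bone marrow cells the members called were 0 with all arrays and 1, PTGFR, with array weights, dim probe sets left out, only the 2 groups compared or 1 probe set per gene, and 0 to 1 without 1 array. In blood-derived against adipose cells they were 1, and 2 with 1 probe set per gene, where fewer features are tested, and 1 to 3 without 1 array. With dim probe sets left out the 1 call there was PTGS1 (adjusted p = 0.0421), as HPGD was not tested. In adipose against bone marrow cells they were 3, and 2 with dim probe sets left out or at the 2-fold criterion. There they were 1 with only the 2 groups compared, and 0 to 3 without 1 array. By the F test they were 3, and 2 with dim probe sets left out, and 1 to 3 without 1 array.

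Over all probe sets the calls in blood-derived against bone marrow cells were 249, and 479 with dim probe sets left out, 744 with array weights, 488 with 1 probe set per gene and 86 to 384 without 1 array. In blood-derived against adipose cells they were 2116, and 1029 with only the 2 groups compared, 1192 at 2-fold or more and 1176 to 2037 without 1 array. In adipose against bone marrow cells they were 1857, and 1037 at 2-fold or more and 849 to 2012 without 1 array. Where fewer features or arrays were not the construction of an alternative, the cause was not tested. With replicate number entered as a block, the members called were 0, 1 and 3 in the order of comparisons above, the calls over all probe sets 263, 1625 and 1492, and 2 members passed the F test. Among the list genes eligible to be named the block ended the calls of PPARG in blood-derived against adipose cells (adjusted p = 0.0535) and NT5E in adipose against bone marrow cells (0.0686), and NR4A2 passed in blood-derived against bone marrow cells (0.037). Averaging over probe sets gave no value, as each member has 1. PTGER4 and HPGD were not tested with dim probe sets left out, since they lay above the median in 0 and 2 arrays.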
